A study of Homo sapiens with 3 samples.

Results

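The contacts described here are those that the captured risk region of 2q35 made with the telomeric part of DIRC3, its start, and TNS1. The stretch began where the captured region ended, at position 218362745 of chromosome 2 (GRCh37), and ran to 218820000. Its members were the 135 HindIII fragments whose midpoint lay in that stretch, of 3041 targets at 2q35 and 17969 over all captured regions that lay within 5 Mb of capture. The rule that picks them uses positions and no count, although the stretch itself was proposed with earlier results of these data known. All 135 held at least 50 contacts in 1 line and so entered the test between lines.

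In Capture Hi-C, chromatin is fixed, cut with a restriction enzyme and ligated, so that DNA ends close together in the nucleus become joined, and joined pairs that contain a chosen region are then enriched by hybridisation. Contact counts fall steeply with distance along the chromosome, so a count carries information only beside the count usual at that distance. DIRC3 is a gene for a long non-coding RNA, and TNS1 encodes tensin, a protein of focal adhesions that links integrins to the actin cytoskeleton. Both genes are read towards the captured region, which reaches into the body of DIRC3, so that the start of TNS1 lies farthest away. The series asked which sequences the risk regions contact in breast cells.

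The lines were BT483, a breast cancer line taken from a primary invasive ductal carcinoma; SUM44, a breast cancer line taken from a pleural effusion; and GM06990, a lymphoblastoid line of B lymphocytes. All 3 were fixed for 5 min in 2% formaldehyde and cut with HindIII. BT483 grew in 20% serum with insulin and was lysed with trypsin. SUM44 grew in 10% serum with 1 nM estradiol, and GM06990 in 15% serum, and both were lysed in a dounce homogeniser. The line therefore cannot be told apart from its medium and, for BT483, its lysis. Each line had 2 replicate count columns (n = 2). Nothing says that the replicates were separate cultures, so p-values measure only the spread between these libraries, which may be technical.

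Contacts of 2q35 within 5 Mb, summed over its 227 captured fragments, numbered 26168 and 182578 in BT483, 353452 and 315728 in SUM44, and 124286 and 114237 in GM06990. The 135 members took between 25.6% (95% exact interval 25.4 to 25.8%; BT483 replicate 2) and 34.9% (34.7 to 35%; SUM44 replicate 2) of them. A member held a median of 45 and 297 contacts in the BT483 replicates, 757 and 711 in SUM44, and 267 and 220 in GM06990. BT483 replicate 1 was the shallowest library, and its values per fragment are the least precise. As no molecular identifiers marked the amplified pairs, each interval covers counting error only. The replicates of a line differed by 2.93 times the counting variance in BT483, 1.16 times in SUM44 and 3.59 times in GM06990. The test between lines shares 1 estimate of the spread over all 3 lines. Its p-values for BT483 against GM06990 thus borrow the smaller spread of SUM44 and may be too small.

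Values are observed over expected ratios: the contacts of a target with all captured fragments of 2q35, divided by the contacts expected at those distances in that replicate. A ratio of 1 is the usual count at that distance. The members were read in 4 zones: 74 fragments of DIRC3 from 218362745 to 218620324, 14 from its start to the end of TNS1 (218620325 to 218664945), 43 of the TNS1 body (218664946 to 218808186), and 4 that hold the TNS1 start and the sequence upstream (218808187 to 218820188). The DIRC3 start lay 259 kb and the TNS1 start 446 kb from the edge of the captured region.

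Because the starts of both genes are the places of interest, their promoter sequences are shown, from 250 bases before to 50 after the start as RefSeq gives it on GRCh38.p14 (a different build from the counts). They lie at chr2:217756544-217756843 for DIRC3 and chr2:217944021-217944320 for TNS1, both on the minus strand. RefSeq lists 3 windows for DIRC3 and 5 for TNS1, and the pair shown is the one whose starts lie 187477 bp apart, against 187480 bp in GRCh37. Capitals mark each CG dinucleotide, the usual site of DNA methylation.
DIRC3 promoter: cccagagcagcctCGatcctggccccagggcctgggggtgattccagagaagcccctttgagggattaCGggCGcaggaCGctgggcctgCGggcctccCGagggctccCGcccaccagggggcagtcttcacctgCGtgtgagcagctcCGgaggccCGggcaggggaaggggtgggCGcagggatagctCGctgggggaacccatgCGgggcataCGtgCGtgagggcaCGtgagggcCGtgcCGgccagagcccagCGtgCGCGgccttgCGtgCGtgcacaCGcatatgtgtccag
TNS1 promoter: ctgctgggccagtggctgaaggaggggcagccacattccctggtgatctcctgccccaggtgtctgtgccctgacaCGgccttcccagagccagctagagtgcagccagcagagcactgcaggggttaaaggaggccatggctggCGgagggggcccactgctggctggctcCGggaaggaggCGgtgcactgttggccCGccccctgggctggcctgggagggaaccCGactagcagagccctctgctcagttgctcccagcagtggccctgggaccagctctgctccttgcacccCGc
The DIRC3 window holds 24 CG dinucleotides and is 71.0% G and C, and that of TNS1 holds 7 and is 68.0% G and C, against medians of 14 and 58.7% over 35116 RefSeq promoter windows. Neither window holds AAGCTT, the site that HindIII cuts on both strands, which 5.84% of all windows hold. A window shows letters only and says nothing of activity in these lines.

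Contact with the stretch was uneven, and the starts of both genes were not its summits. In every library a broad rise lay inside DIRC3, between 200 and 250 kb from the captured region, and ended before the DIRC3 start. From there into TNS1 the ratio lay near or under 1 in both breast lines, whereas in GM06990 it returned above 1 over the TNS1 body. The profile of ratios along the stretch shows these features in each replicate.

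**Figure D1:**
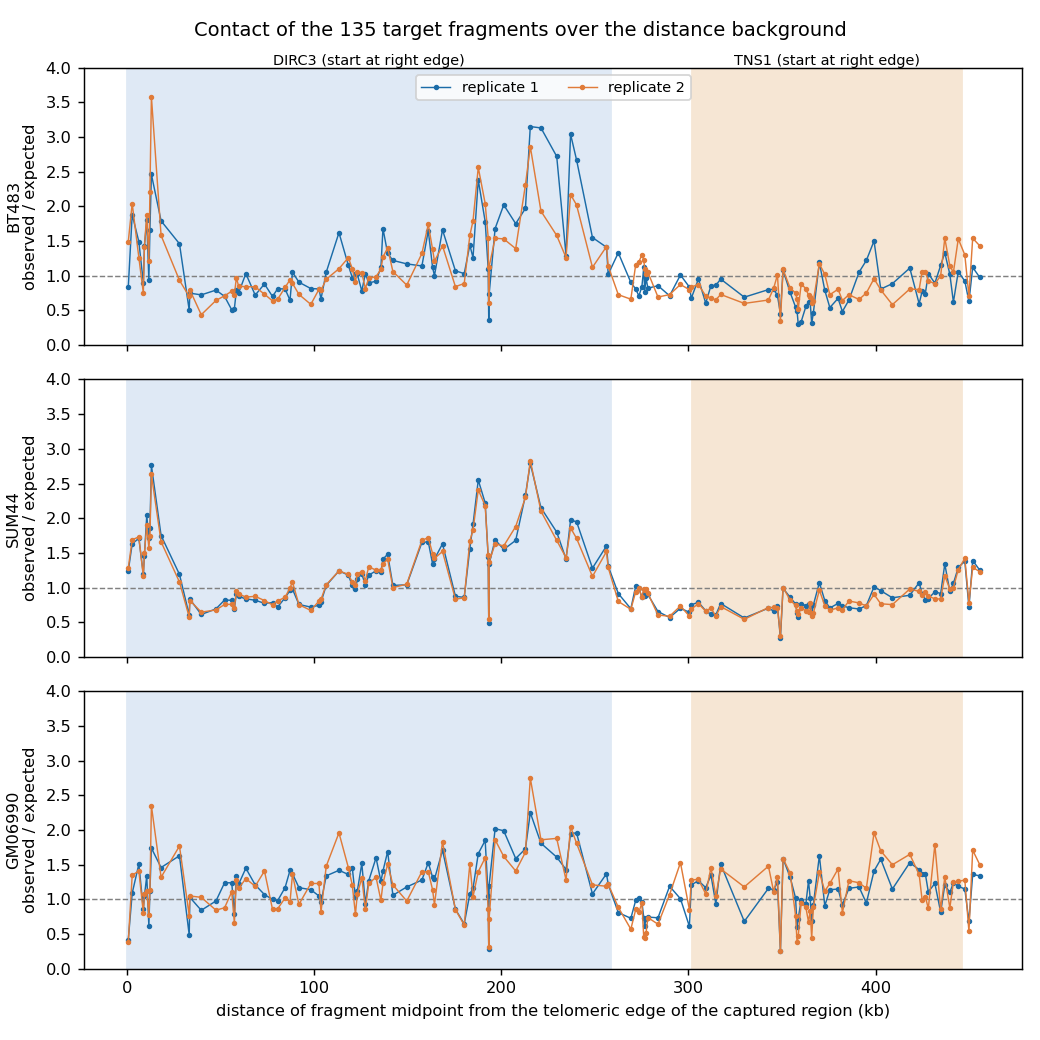
Observed over expected contacts of the 135 members (points) against the distance of their midpoint from the telomeric edge of the captured region in kb, one panel per line and one trace per replicate; shaded spans are DIRC3 and TNS1, and the dashed line is a ratio of 1. All 3 lines show a broad rise inside DIRC3 around 215.5 kb, BT483 replicate 2 has its highest point at 13.11 kb, and over the TNS1 body most BT483 and SUM44 points lie under 1 while 30 and 28 of the 43 GM06990 points lie above it.

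Within DIRC3, the 5 fragments with a midpoint 200 to 225 kb from capture (chr2:218562367-218587644) had summed ratios of 2.40 and 2.00 in BT483, 2.09 and 2.14 in SUM44, and 1.88 and 1.86 in GM06990. The next 25 kb (chr2:218587645-218618652) had 2.26 and 1.63 in BT483, 1.68 and 1.57 in SUM44, and 1.61 and 1.65 in GM06990. All 6 libraries lay above 1.5 in both bins. At 250 to 275 kb, over the start itself, the ratio was 1.03 and 1.05 in BT483, 1.09 and 1.04 in SUM44, and 1.02 and 0.925 in GM06990. So the summit and the DIRC3 start were separate in each line.

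The fragment chr2:218576103-218580318 (4216 bp, intragenic in DIRC3) was the only member with a ratio above 2 in all 6 libraries. It read 3.15 and 2.86 in BT483, 2.79 and 2.83 in SUM44, and 2.25 and 2.75 in GM06990, on 6082 contacts in all. Every breast library lay above both GM06990 libraries there, the nearest at 2.79 against 2.75. Neither breast line was called different from GM06990 (log2 change 0.26 ± 0.16 SE, edgeR adjusted p = 0.319, in BT483, and 0.17 ± 0.15, adjusted p = 0.422, in SUM44). Altogether 10 members lay above 1.5 in all 6 libraries, and all but 1 of them lay between 218552747 and 218604191.

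The exception was chr2:218375366-218376342 (977 bp), 13.11 kb from capture, which read 2.46 and 3.58 in BT483, 2.76 and 2.63 in SUM44, and 1.74 and 2.35 in GM06990. Every breast library lay above both GM06990 libraries there. It was called higher in BT483 (log2 change 0.59 ± 0.18, adjusted p = 0.0365) and not called in SUM44 (0.40 ± 0.17, adjusted p = 0.1). The 5 highest ratios of each line, over members with at least 50 contacts, were those of 8 fragments, all of them in DIRC3.

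Others of these stood just outside the rise, on its side towards capture, those given here at 187.7 and 196.7 kb from capture. Fragment chr2:218548079-218552746 (4668 bp) read 2.38 and 2.56 in BT483, 2.55 and 2.41 in SUM44, and 1.66 and 1.40 in GM06990. The breast lines did not overlap with GM06990 there, and both were called higher (BT483 log2 change 0.70 ± 0.16, adjusted p = 0.00821; SUM44 0.69 ± 0.15, adjusted p = 0.00228). Fragment chr2:218556424-218562366 (5943 bp) read 1.68 and 1.54 in BT483, 1.69 and 1.63 in SUM44, and 2.02 and 1.86 in GM06990, so GM06990 lay above both, without a call (-0.29 ± 0.16, adjusted p = 0.262; -0.22 ± 0.15, adjusted p = 0.274).

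The fragment that holds the DIRC3 start, chr2:218620325-218630135 (9811 bp), had 1681 contacts in all. Its ratio was 1.33 and 0.726 in BT483, 0.913 and 0.800 in SUM44, and 0.811 and 0.886 in GM06990. The replicates of BT483 lay on either side of 1 and of all other libraries, and the other 4 libraries lay under 1 and overlapped. No difference was called (BT483 minus GM06990 0.08 ± 0.23, adjusted p = 0.866; SUM44 minus GM06990 0.02 ± 0.20, adjusted p = 0.962; BT483 minus SUM44 0.07 ± 0.22, adjusted p = 0.909), and these signs turn under other settings. Widened by 10 kb to each side of the start (4 fragments, chr2:218604192-218630135), the ratio was 1.33 and 1.10 in BT483, 1.28 and 1.19 in SUM44, and 1.12 and 1.13 in GM06990, so the window takes in the flank of the summit.

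The TNS1 start fragment, chr2:218808187-218812454 (4268 bp), had 1779 contacts. Its ratio was 0.921 and 1.30 in BT483, 1.38 and 1.42 in SUM44, and 1.15 and 1.28 in GM06990. SUM44 lay above the other libraries, BT483 straddled GM06990, and no difference was called (-0.02 ± 0.19, adjusted p = 0.974; 0.20 ± 0.17, adjusted p = 0.394; BT483 minus SUM44 -0.22 ± 0.18, adjusted p = 0.592). The window of 10 kb to each side (8 fragments, chr2:218797532-218820188) read 0.959 and 1.28 in BT483, 1.17 and 1.14 in SUM44, and 1.16 and 1.22 in GM06990. Here the lines overlapped, and all but BT483 replicate 1 lay above 1.

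At the other end of the gene, the fragment chr2:218663558-218664945 (1388 bp), which holds the end of TNS1, read 0.675 and 0.839 in BT483, 0.752 and 0.690 in SUM44, and 1.21 and 1.28 in GM06990. All breast libraries lay under 1 and both GM06990 libraries above it. It was called lower in both (BT483 log2 change -0.65 ± 0.19, adjusted p = 0.0287; SUM44 -0.79 ± 0.16, adjusted p = 0.00154). The BT483 call was lost with DESeq2 (adjusted p = 0.0888), with a background per side (edgeR adjusted p = 0.0585) and without BT483 replicate 2, either GM06990 replicate or either SUM44 replicate (adjusted p 0.0645 to 0.114), and the SUM44 call without SUM44 replicate 2 (adjusted p = 0.0741). The start and the end of TNS1 thus differed in their calls; the difference between the 2 ends was not itself tested.

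**Figure D2:**
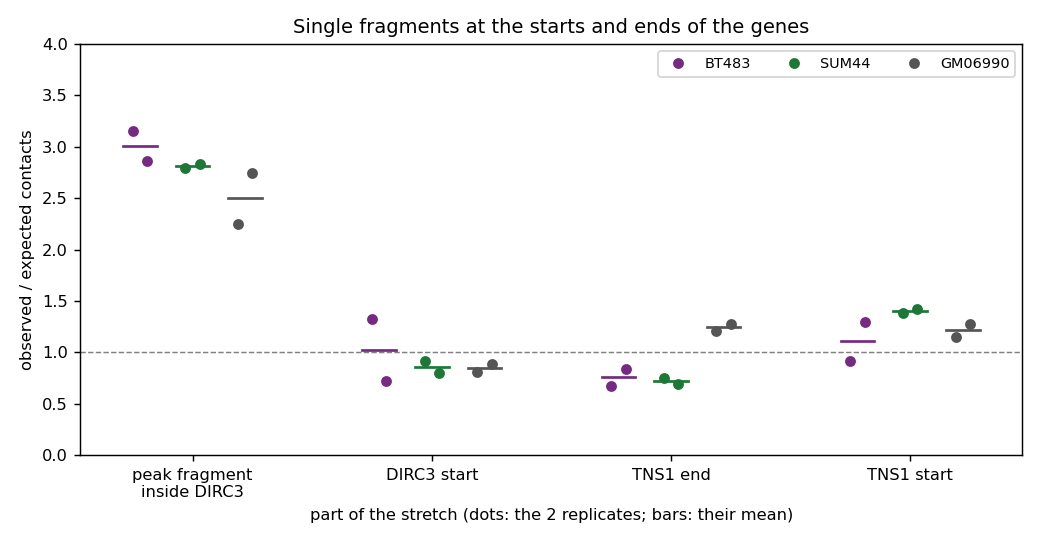
Observed over expected contacts of 4 single fragments in BT483, SUM44 and GM06990; dots are the 2 replicates, bars their mean, and the dashed line a ratio of 1. The fragment inside DIRC3 lies between 2.25 and 3.15 in all libraries, the DIRC3 start fragment between 0.726 and 1.33, and at the end of TNS1 both breast lines (0.675 to 0.839) lie apart from GM06990 (1.21 and 1.28), with a call.

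The fragments whose pattern over the 6 libraries was most like that of each start were sought among the 1733 tested targets of 2q35, by the Euclidean distance of the log2 ratios. For the DIRC3 start these were chr2:216105221-216109965 (distance 0.194), chr2:219785377-219786784 (0.242) and chr2:216047217-216050095 (0.391), none of them a member. For the TNS1 start they were chr2:217391207-217397121 (0.261), chr2:212820831-212828450 (0.289) and the member chr2:218619332-218620324 (0.303), the fragment just before the one with the DIRC3 start. That member read 1.02 and 1.14 in BT483, 1.31 and 1.29 in SUM44, and 1.22 and 1.22 in GM06990. The pattern of the DIRC3 start, with BT483 replicate 1 alone above the other libraries, was shared by fragments outside the stretch.

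Summed by zone, the lines differed most over the TNS1 body. Its ratio was 0.781 and 0.825 in BT483, 0.794 and 0.770 in SUM44, and 1.13 and 1.14 in GM06990 (means 0.803 ± 0.0310, 0.782 ± 0.0172 and 1.13 ± 0.00776, SD, n = 2). Every breast replicate lay under 1 and under both GM06990 replicates. The body took 4.04% (3.81 to 4.29%) and 4.26% (4.16 to 4.35%) of the contacts of 2q35 in BT483, 4.94% (4.87 to 5.01%) and 4.86% (4.78 to 4.93%) in SUM44, and 6.78% (6.64 to 6.92%) and 6.38% (6.24 to 6.52%) in GM06990.

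The DIRC3 zone read 1.23 and 1.24 in BT483, 1.29 and 1.28 in SUM44, and 1.21 and 1.17 in GM06990, all above 1 and within a narrow range. The zone between the genes read 0.885 and 0.957 in BT483, 0.817 and 0.811 in SUM44, and 0.861 and 0.825 in GM06990, all under 1. Upstream of TNS1 the ratio was 0.910 and 1.24 in BT483, 1.18 and 1.18 in SUM44, and 1.13 and 1.26 in GM06990, and the lines overlapped. With 2 replicates against 2 an exact permutation test cannot give a p under 0.33, so the zones carry no p.

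**Figure D3:**
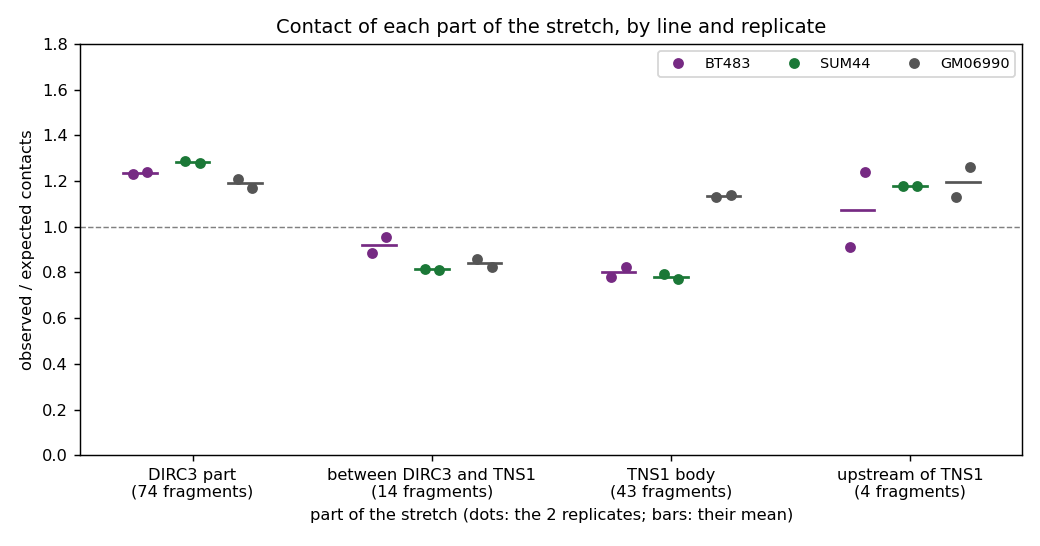
Observed over expected contacts summed over each zone (number of fragments under its name) in BT483, SUM44 and GM06990; dots are the 2 replicates, bars their mean, and the dashed line a ratio of 1. The lines lie within 1.17 to 1.29 over DIRC3, while over the TNS1 body the 4 breast libraries (0.770 to 0.825) lie apart from GM06990 (1.13 and 1.14).

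Over all 135 members the lines came close to each other again, at 1.11 and 1.12 in BT483, 1.15 and 1.14 in SUM44, and 1.16 and 1.13 in GM06990. A stretch of like distance on the centromeric side of capture (130 fragments, 217153332 to 217609775) read 1.10 and 1.11 in BT483, 1.10 and 1.11 in SUM44, and 1.03 and 1.04 in GM06990. Both stretches stood a little above the distance background in every library.

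In the test between lines, BT483 against GM06990 called 11 members higher and 31 lower, and 93 were not called (edgeR quasi-likelihood test, Benjamini-Hochberg adjusted p under 0.05 over the 5466 tested fragments of 3 risk loci). Of all tested fragments, 7.46% were called higher and 5.18% lower. The lower calls comprised 15 of the 43 fragments of the TNS1 body, 14 of the 74 of DIRC3 and 2 of the 14 between, and the higher calls 8 in DIRC3, 3 between and 0 in the TNS1 body. The median log2 change was -0.17 over the members and -0.49 over the TNS1 body, against 0.06 over all tested fragments. The replicates of the lines did not overlap in 27 members on the higher side and 60 on the lower, where the shares over all tested fragments were 26.7% and 21.9%.

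SUM44 against GM06990 called 15 members higher and 37 lower, with 13.8% and 10.6% of all tested fragments called. Here 22 of the 43 TNS1 body fragments were lower and 0 higher, 12 and 12 of DIRC3 lower and higher, and 3 and 3 between. The medians were -0.19 over the members, -0.51 over the TNS1 body and 0.09 over all tested fragments. Replicates did not overlap in 38 members on the higher side and 67 on the lower, beside 38.8% and 28.7% of all tested fragments. None of the 4 fragments upstream of TNS1 was called in either comparison.

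Both comparisons use the same 2 GM06990 libraries, so their calls are not independent. Called in both were 10 members as higher (7.41%, beside 6.42% of all tested fragments) and 27 as lower (20.0%, beside 4.41%), of which 15 lay in the TNS1 body, and 0 went opposite ways. The share called lower in both was thus above that of all tested fragments and the share called higher near it. That background was not matched for contacts. Members lie next to capture and hold many, while a tested fragment needs only 50 in 1 line, and more contacts make a call in either direction easier.

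The calls rest on single libraries to a degree. For BT483 against GM06990 the members called higher and lower were 18 and 42 without BT483 replicate 1, 8 and 9 without BT483 replicate 2, 6 and 14 without either SUM44 replicate, 7 and 17 without GM06990 replicate 1, and 4 and 6 without GM06990 replicate 2. For SUM44 against GM06990 they were 23 and 52 without either BT483 replicate, 5 and 11 without SUM44 replicate 1, 6 and 7 without SUM44 replicate 2, 13 and 29 without GM06990 replicate 1, and 8 and 24 without GM06990 replicate 2. In the TNS1 body the lower calls ranged from 4 (without BT483 replicate 2, and without GM06990 replicate 2) to 19 (without BT483 replicate 1) for BT483. For SUM44 they ranged from 5 (without SUM44 replicate 2) and 8 (without SUM44 replicate 1) to 30 (without either BT483 replicate). Higher calls there were 0 in each of these fits but 1, the fit of SUM44 without GM06990 replicate 1, which had 1; the zone's median stayed between -0.63 and -0.45 throughout.

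The direction over the TNS1 body held under every scaling tried, and that over DIRC3 did not. With the total of contacts within 5 Mb as scale and distance left in, BT483 had 8 higher and 27 lower members, and SUM44 22 higher and 23 lower, so that 48.9% of the SUM44 calls were higher where the distance background gave 28.8%. That scale moved the median of all tested fragments to 0.23 in BT483. Under it the TNS1 body kept 23 lower and 0 higher in BT483 and 20 and 0 in SUM44, but DIRC3 had 2 lower and 6 higher in BT483 and 0 lower and 19 higher in SUM44. With separate backgrounds for the 2 sides of capture the split in SUM44 was 9 higher and 43 lower (17.3% higher), and DESeq2 gave 8 and 12 in BT483 (40.0% higher, beside 26.2%).

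**Figure D4:**
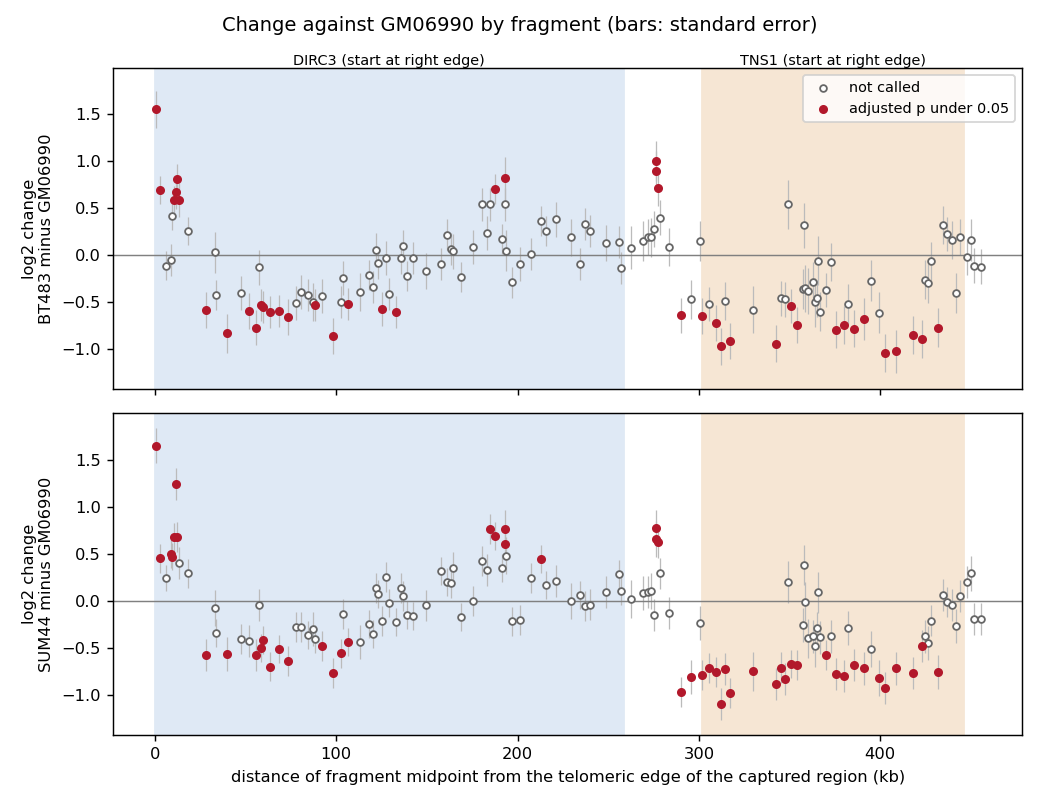
Log2 change of each member against GM06990 (upper panel BT483, lower panel SUM44; bars are standard errors) by distance from the telomeric edge of the captured region in kb; filled points have an edgeR adjusted p under 0.05, and shaded spans are DIRC3 and TNS1. Over the TNS1 body all filled points lie under 0 (15 in BT483, 22 in SUM44), while within DIRC3 filled points lie on both sides.

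The named fragments of the TNS1 body, and the called ones named further below, were picked as the largest called changes without overlap of replicates. In the comparison that picked a fragment, its separation of breast and GM06990 libraries was thus fixed by the choice. Fragment chr2:218764048-218766794 (2747 bp) read 0.807 and 0.795 in BT483, 0.955 and 0.766 in SUM44, and 1.58 and 1.70 in GM06990. Breast and GM06990 libraries were far apart, and it was called lower in BT483 (log2 change -1.04 ± 0.20, adjusted p = 0.00286) and SUM44 (-0.93 ± 0.17, adjusted p = 0.000483). It opened a run of 4 adjacent fragments to 218786708, 22.7 kb in all, each called lower in both breast lines.

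Its neighbour chr2:218766795-218776556 (9762 bp) read 0.885 and 0.582 in BT483, 0.852 and 0.754 in SUM44, and 1.15 and 1.5 in GM06990. Both breast lines lay under both GM06990 libraries, in BT483 by the choice of fragments (BT483 -1.02 ± 0.23, adjusted p = 0.00693, and SUM44 -0.72 ± 0.18, adjusted p = 0.00749). Towards the end of the gene, chr2:218672648-218676901 (4254 bp) read 0.857 and 0.673 in BT483, 0.614 and 0.704 in SUM44, and 1.35 and 1.46 in GM06990. It carried the largest fall of any member in SUM44 (-1.10 ± 0.17, adjusted p = 0.000106), beside -0.97 ± 0.20 (adjusted p = 0.0042) in BT483.

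Fragment chr2:218677789-218682063 (4275 bp) read 0.951 and 0.729 in BT483, 0.770 and 0.726 in SUM44, and 1.51 and 1.44 in GM06990. It was called lower at -0.91 ± 0.19 in BT483 (adjusted p = 0.00511) and -0.98 ± 0.16 in SUM44 (adjusted p = 0.000241). Fragment chr2:218703035-218707897 (4863 bp) read 0.799 and 0.649 in BT483, 0.703 and 0.712 in SUM44, and 1.16 and 1.48 in GM06990, with changes of -0.94 ± 0.20 (adjusted p = 0.00629) and -0.89 ± 0.17 (adjusted p = 0.000836). In all 5 of these TNS1 fragments the breast libraries lay under 1 and both GM06990 libraries above it. The order of the lines there followed from the choice of fragments, except in SUM44 at chr2:218766795-218776556. Without BT483 replicate 2 the BT483 call was kept only at chr2:218764048-218766794, and chr2:218766795-218776556 read -0.58 (edgeR adjusted p = 0.304). Without GM06990 replicate 2 it was lost at chr2:218766795-218776556 (adjusted p = 0.0758) and chr2:218703035-218707897 (adjusted p = 0.0671), and without SUM44 replicate 2 the SUM44 call at chr2:218764048-218766794 (adjusted p = 0.0532).

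Just outside the gene, between DIRC3 and TNS1, the calls went both ways. Fragment chr2:218651388-218653939 (2552 bp) read 0.710 and 0.727 in BT483, 0.568 and 0.586 in SUM44, and 1.19 and 1.07 in GM06990, and was called lower in both (-0.64 ± 0.19, adjusted p = 0.03, in BT483; -0.97 ± 0.16, adjusted p = 0.000268, in SUM44). Nearer to the DIRC3 start, 3 adjacent short fragments from 218638539 to 218640506 were called higher in both. Of these chr2:218638539-218639194 (656 bp) read 1.12 and 1.23 in BT483, 0.910 and 0.981 in SUM44, and 0.729 and 0.453 in GM06990. The GM06990 libraries were lowest there, and the change was 1.00 ± 0.21 in BT483 (adjusted p = 0.00559) and 0.66 ± 0.19 in SUM44 (adjusted p = 0.0164).

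The middle one of the 3, chr2:218639195-218639579 (385 bp), read 0.765 and 1.10 in BT483, 0.872 and 0.965 in SUM44, and 0.621 and 0.448 in GM06990. Its change was 0.90 ± 0.21 in BT483 (adjusted p = 0.011) and 0.77 ± 0.19 in SUM44 (adjusted p = 0.00634). Both GM06990 libraries lay well under 1 in these fragments, whereas the breast libraries lay nearer to it. The BT483 calls of both fragments were lost without BT483 replicate 2 (edgeR adjusted p = 0.054 and 0.405, the second at 0.50) and without GM06990 replicate 2 (0.0713 and 0.11). The SUM44 call of the middle one was lost without SUM44 replicate 2 (0.092) or GM06990 replicate 2 (0.109), and with length in the background its changes were 0.59 in BT483 and 0.44 in SUM44.

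Within DIRC3 the order of the lines varied with distance from capture. The first 25 kb (10 fragments, 218362745 to 218385699) read 1.38 and 1.73 in BT483, 1.72 and 1.67 in SUM44, and 0.965 and 0.973 in GM06990. From 50 to 75 kb (8 fragments) the ratio was 0.736 and 0.805 in BT483, 0.818 and 0.828 in SUM44, and 1.19 and 1.12 in GM06990. The breast lines and GM06990 were in opposite order in these bins, and their libraries overlapped in neither. That order is read over the distance background only. Scaled by totals, DIRC3 held 0 lower and 19 higher calls in SUM44, and 2 lower and 6 higher in BT483. From 175 to 200 kb (10 fragments) the breast lines again lay above GM06990, with 1.28 and 1.45 in BT483, 1.49 and 1.48 in SUM44, and 1.18 and 1.08 in GM06990.

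The member next to capture, chr2:218362745-218364251 (1507 bp), had the highest log2 change of all 135 over the distance background. It read 0.834 and 1.49 in BT483, 1.24 and 1.28 in SUM44, and 0.420 and 0.383 in GM06990. GM06990 was far below the other libraries, with changes of 1.55 ± 0.20 in BT483 (adjusted p = 0.000136) and 1.65 ± 0.19 in SUM44 (adjusted p = 2.14e-05). Scaled by totals, both calls were lost (edgeR: 0.83, adjusted p = 0.0582, in BT483; 0.44, adjusted p = 0.278, in SUM44), and with a background per side the SUM44 change was 0.73 (adjusted p = 0.00893). Then 3 adjacent fragments from 218372522 to 218375365 were also called higher in both lines. Of these chr2:218374219-218374765 (547 bp) read 0.937 and 1.21 in BT483, 1.71 and 1.57 in SUM44, and 0.619 and 0.774 in GM06990, the SUM44 libraries lying highest (0.67 ± 0.18, adjusted p = 0.0189, in BT483; 1.24 ± 0.17, adjusted p = 4.63e-05, in SUM44). In SUM44 its change was above that of the first member under those settings, at 1.72 with totals and 0.95 per side.

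The last of the 3, chr2:218374766-218375365 (600 bp), read 1.66 and 2.21 in BT483, 1.86 and 1.75 in SUM44, and 1.12 and 1.13 in GM06990 (0.81 ± 0.16, adjusted p = 0.0041; 0.68 ± 0.16, adjusted p = 0.00329). Farther in, 5 adjacent fragments from 218420344 to 218439748 (19.4 kb) were called lower in both breast lines. Their changes ran from -0.66 to -0.53 in BT483 and from -0.70 to -0.42 in SUM44. Scaled by totals, none of the run stayed called in SUM44, as all of DIRC3 held 0 lower calls there and 2 in BT483. With DESeq2 all of DIRC3 held 3 lower calls in BT483 and 6 in SUM44.

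On the near flank of the DIRC3 summit, chr2:218547166-218548078 (913 bp) read 1.26 and 1.79 in BT483, 1.91 and 1.83 in SUM44, and 1.16 and 1.04 in GM06990. It was called higher in SUM44 (0.76 ± 0.16, adjusted p = 0.00228), and in BT483 the change was 0.54 ± 0.18 (adjusted p = 0.0507). The shortest named fragment, chr2:218556026-218556069 (44 bp), read 0.354 and 0.603 in BT483, 0.483 and 0.550 in SUM44, and 0.291 and 0.321 in GM06990. It was called higher in both (0.82 ± 0.23, adjusted p = 0.0263; 0.76 ± 0.21, adjusted p = 0.0107), but with fragment length in the background the change was -0.04 in BT483 and 0.10 in SUM44. Without BT483 replicate 2 it was 0.22 in BT483, and DESeq2 called neither (adjusted p = 0.146 and 0.0587).

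Fragment length moved with the ratio in GM06990 more than in the other lines. Over the 135 members, Spearman's rho of ratio and length was 0.32 and 0.03 in the BT483 replicates, 0.09 and 0.07 in SUM44, and 0.40 and 0.59 in GM06990; neighbouring fragments share their surroundings, so this is a description. The 14 members under 500 bp had median ratios of 0.696 in BT483, 0.708 in SUM44 and 0.674 in GM06990, and the longer ones 0.992, 0.960 and 1.21. With length in the background, a setting chosen after this relation had been seen, 12 members were higher and 38 lower in BT483 and 17 and 47 in SUM44. The TNS1 body then held 20 and 28 lower calls and 0 higher.

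Between the breast lines, BT483 minus SUM44, 0 of the 135 members were called, where 0.0183% of all tested fragments were called higher and 0.165% lower. At an unadjusted edgeR p under 0.05 there were 9 of the 135, beside 817 of the 5466 tested fragments, and DESeq2 also called 0. The median log2 change was -0.01, with a range from -0.57 to 0.43. The lowest was chr2:218374219-218374765, described above, at -0.57 ± 0.17 (edgeR adjusted p = 0.153). Replicates did not overlap in 22 members on the higher side and 33 on the lower, beside 21.9% and 26.1% of all tested fragments. The standard error of the change had a median of 0.18 over the members (0.14 to 0.25), so a missing call does not show that the lines were alike.

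Few single pairs of a captured and a member fragment passed the test. Of 30645 such pairs per line, 0 were called in BT483, 1 in SUM44 and 0 in GM06990 (negative binomial upper tail, adjusted p at most 0.01 over the 690307 pairs of 2q35 and at least 5 contacts in both replicates together). Over all pairs of 2q35 the called shares were 0.000579% in BT483, 0.000435% in SUM44 and 0.0% in GM06990. At an unadjusted one-sided p under 0.05 with at least 5 contacts there were 895, 2397 and 1644 member pairs, in the same order as the depth of the lines. The like count over all pairs of 2q35 was not taken, so these numbers show no excess of the members.

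The called pair joined chr2:217623593-217631107, near the centromeric end of the captured region, to chr2:218375366-218376342 in DIRC3, over 749 kb. Its captured end lies in the part of the captured region (block 1 of 5 equal parts, at its centromeric end) that read 2.60 and 2.60 with the whole stretch in SUM44, so the ratio of the pair is set against a background that the whole block exceeded; the share of that excess in the call was not tested. SUM44 held 53 contacts of it (31 and 22 in the replicates), 13.3 times the expected count (exact Poisson interval 9.93 to 17.3; negative binomial adjusted p = 0.00638). With distance alone in the background the adjusted p was 0.0512, and with either replicate alone the pair was not called. BT483 held 12 contacts of the same pair, 10.4 times its expected count, and GM06990 5 contacts, 2.76 times; no test compares the lines for a pair.

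The 3 pairs with the highest ratio of each line all ended in DIRC3, and none in TNS1. In BT483 the highest, chr2:217955320-217959806 with chr2:218580319-218587644, had 6 contacts and 17.1 times the expected count (6.26 to 37.1, negative binomial adjusted p = 0.566). In SUM44 the pair of chr2:217640472-217640852 with the summit fragment chr2:218576103-218580318 had 31 contacts and 12.1 times (8.25 to 17.2; adjusted p = 0.0313, past the limit of 0.01). In GM06990 the same summit fragment met chr2:217671758-217678338 in 15 contacts, 13.4 times (7.51 to 22.1; adjusted p = 0.285). These pairs crossed most of the captured region, since their captured ends lay in its centromeric part, with that of the BT483 pair nearer to the middle.

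Split into 5 blocks of captured fragments of equal length, the captured region contacted the stretch unevenly, and alike in the 3 lines. Block 1, the centromeric end (33 fragments, 217609776 to 217758849) and the farthest from the stretch, read 2.23 and 2.03 in BT483, 2.60 and 2.60 in SUM44, and 3.04 and 2.45 in GM06990. Block 5, next to the stretch (52 fragments, 218212600 to 218362744), read 0.825 and 0.888 in BT483, 0.865 and 0.849 in SUM44, and 0.720 and 0.741 in GM06990. Blocks 2, 3 and 4 lay between these, in that order, in each library.

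For the centromeric stretch the ends were turned round: block 5, then the farthest, had means of 1.89 in BT483, 2.22 in SUM44 and 1.60 in GM06990, and block 1 had 0.697, 0.730 and 0.878. In GM06990 block 2 was lower still, at 0.770. On both sides the block farthest from the target thus had the highest ratio. With distance alone in the background, a setting chosen after these values had been seen, block 1 read 2.50 and 1.95 in BT483, 2.68 and 2.55 in SUM44, and 3.22 and 2.77 in GM06990. Block 5 then read 0.899 and 0.966 in BT483, 0.952 and 0.947 in SUM44, and 0.764 and 0.753 in GM06990. The part of the background fit in this gradient was not tested further.

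Across blocks, the TNS1 body kept its difference between the lines. Its means by block 1 to 5 were 1.81, 1.13, 0.877, 0.677 and 0.522 in BT483, 2.12, 1.23, 0.917, 0.624 and 0.469 in SUM44, and 2.81, 1.67, 1.16, 0.900 and 0.691 in GM06990. GM06990 lay above both breast lines in each block, so the difference was spread over the captured region and not carried by 1 block. For DIRC3 the order of the lines varied with the block, from 2.30 in BT483, 2.83 in SUM44 and 2.79 in GM06990 in block 1 to 0.964, 1.00 and 0.767 in block 5.

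The start fragments had few contacts by block. The DIRC3 start fragment read 2.62 and 0.925 in BT483, 2.19 and 1.86 in SUM44, and 2.09 and 1.36 in GM06990 with block 1, where BT483 held only 8 and 18 contacts. The TNS1 start fragment with block 1 read 0.900 and 2.11 in BT483, 3.53 and 3.18 in SUM44, and 4.15 and 2.98 in GM06990, on 2 and 31, 106 and 82, and 48 and 36 contacts. In SUM44 and GM06990 block 1 was the highest block for both starts in each replicate. In BT483 the TNS1 start of replicate 1 was the exception, with 1.25 in block 2. The DIRC3 start of BT483 replicate 2 was highest with block 1, but lay between 0.848 and 0.925 over blocks 1 to 3.

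**Figure D5:**
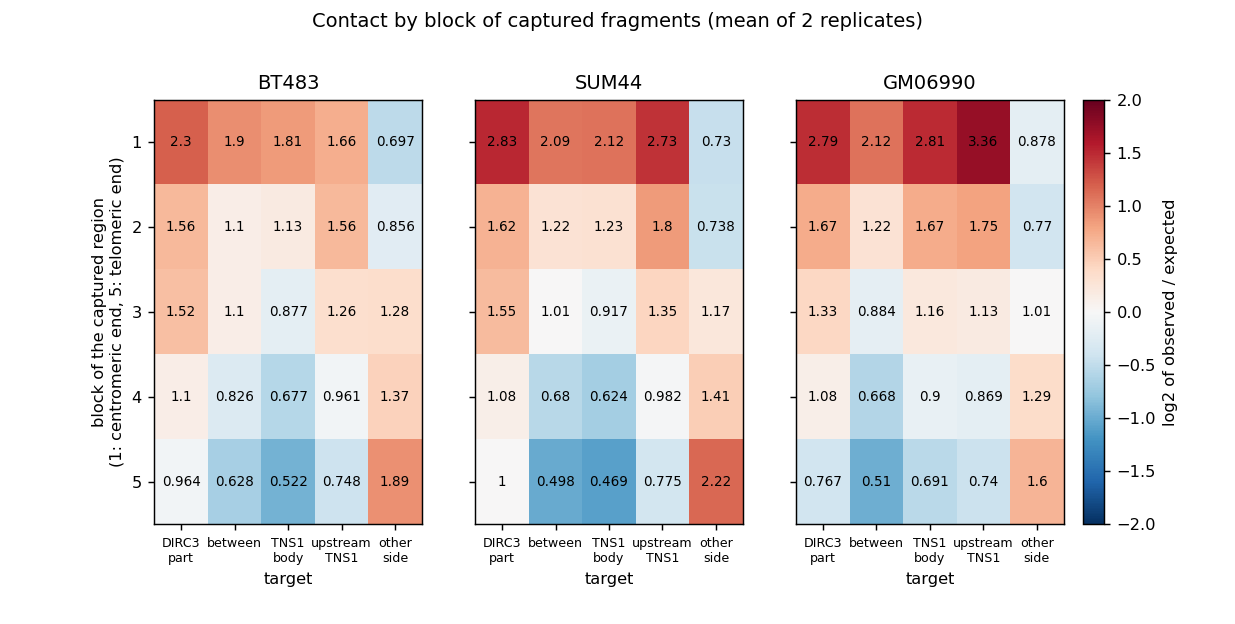
Mean observed over expected contacts of 2 replicates (numbers in cells; colour is log2 of that mean) between 5 blocks of the captured region (rows, 1 the centromeric end and 5 the telomeric end) and the 4 zones of the stretch, one panel per line; the column "other side" is the centromeric stretch of like distance. Ratios run from above 1.6 in block 1 to 1 or less in block 5 for every zone, run the other way on the other side, and are larger over the TNS1 body in GM06990 than in BT483 and SUM44 in each block.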

How the data were processed

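The deposited values are the authors' raw counts of read pairs joining a captured to a target HindIII fragment, a column for each replicate. The submitters' processing notes name CASAVA 1.8 and GRCh37 (hg19); the aligner is not given in the sources used here. No normalisation was applied before the models. The count expected for a pair came from a negative binomial regression per replicate and locus, solved with numpy 2.4.6 and scipy 1.17.1. Its terms were a cubic spline of log10 distance (4 inner knots) and the log of the captured fragment's trans count. The p-values of pairs were adjusted with statsmodels 0.14.6. Counts summed over captured fragments were tested with edgeR 4.0.16 (quasi-likelihood, log expected count as offset, all 6 columns in 1 fit without a replicate block) on 5466 targets of the 3 risk loci with at least 50 contacts in 1 line; p-values were adjusted by Benjamini-Hochberg. DESeq2 1.42.0 was an alternative. The edgeR test and the test of pairs were checked on simulated data, and DESeq2 was not. The simulated libraries all had the same spread, unlike the replicates here.

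Members, zones and thresholds were chosen with earlier results of these data known. Named fragments were those with the gene starts and the TNS1 end, per comparison the 5 highest and 5 lowest called changes without overlap of replicates, per line the 5 highest ratios, and the 3 highest pairs with at least 5 contacts. Contact tables inside the captured region and at low resolution were not used.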

Additional observations from a re-analysis of the deposited data

How the results depend on the processing

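Depth and 2 replicates per line limit these results, and BT483 replicate 1 most of all. The libraries also differed in the balance of trans contacts of 2q35 and those within 5 Mb. Trans contacts numbered 192671 and 831728 in BT483, 520053 and 535171 in SUM44, and 376589 and 797664 in GM06990. What this balance does to the results was not tested. With a replicate left out, the lone library is assumed to vary like the other lines, and a smaller count also follows from fewer libraries. Replicate numbers did not pair libraries (correlations of replicate differences 0.06, -0.06 and -0.02 over 5466 fragments). A replicate block gave 10 higher and 23 lower members in BT483, 14 and 34 in SUM44 (both against GM06990), and 0 between the breast lines. The 22 called named changes, over 308 combinations with other settings, stayed on their side of the threshold in 272, lost the call in 35, and turned sign in 1, the 44 bp fragment with length in the background (-0.04 in BT483). The cause was not tested for any of the changes below.

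Members called lower in BT483 against GM06990 numbered 12 with DESeq2 and 20 with a background per side, and in SUM44 against GM06990 lower calls numbered 23 with totals and higher calls 9 with a background per side. Totals gave 1 lower member between BT483 and SUM44. Leaving out a library gave 4 to 18 higher and 6 to 42 lower in BT483 against GM06990, 5 to 23 and 7 to 52 in SUM44 against GM06990, and 0 to 2 and 0 to 3 in BT483 against SUM44. Member pairs with distance alone numbered 1 in BT483 and 0 in SUM44, where an adjusted p of at most 0.001 or either replicate alone also gave 0.

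Zone ratios with distance alone were 1.28 in BT483 and 1.31 in SUM44 over DIRC3, 0.843 in SUM44 between the genes, 0.814 in SUM44 and 1.15 in GM06990 over the TNS1 body, and 1.23 in SUM44 upstream. With a background per side they were 1.18, 1.08 and 1.16 in BT483, SUM44 and GM06990 over DIRC3, 0.719 in SUM44 and 0.768 in GM06990 between, 0.762, 0.698 and 1.01 over the TNS1 body, and 1.06 and 1.06 in SUM44 and GM06990 upstream. With the log of length as a linear covariate SUM44 had 0.822 between and 1.20 upstream. The calls given above with length in the background used a curved term of length instead. A background fitted without the members gave 1.27, 1.32 and 1.27 over DIRC3, 1.01, 0.912 and 0.958 between, 0.895, 0.894 and 1.31 over the TNS1 body, and 1.37 in SUM44 and 1.40 in GM06990 upstream. Over the TNS1 body both breast lines lay under GM06990 in each of these settings. The values of each replicate alone are those of the report.

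Signs turned only where no change was called, apart from the 44 bp fragment. The DIRC3 start fragment in BT483 minus GM06990 read -0.03 with totals and -0.22 to 0.65 with a library left out (both ends from the BT483 replicates). In SUM44 minus GM06990 it read -0.04 with TMM factors, -0.03 per side and -0.08 to 0.11 with a library left out, and in BT483 minus SUM44 -0.24 with totals and -0.24 to 0.64. The TNS1 start fragment in BT483 minus GM06990 read 0.08 per side, 0.10 with length and -0.40 to 0.10 with a library left out. The TNS1 end fragment in BT483 minus SUM44 read -0.18 with totals and -0.10 to 0.22.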
